A study of Homo sapiens with 6 samples.

Results

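The crowded range of this density series comprised the 3 arrays of MCF10A cells plated at 400K, 600K and 800K, out of 6 arrays in all. MCF10A is an established, non-tumorigenic human mammary epithelial cell line that keeps basal features and grows as a contact-inhibited sheet. Dishes of 35 mm received cells at one of 6 densities, the sparser 50K, 100K and 200K or the crowded 400K, 600K and 800K (K for kilo, in cells plated), and were harvested 24 h later. Total RNA from each density was hybridised to 1 Affymetrix HG-U133 Plus 2 array. Every density shared one growth medium, which contained insulin (10 μg/ml), EGF (20 ng/ml), cholera toxin (100 ng/ml), hydrocortisone (0.5 μg/ml) and 5% serum from horse, and the labels name no other agent. The 3 arrays were taken by their density labels, each gene was expressed relative to the 400K array, and the genes described here moved in the same direction from 400K to 600K and from 600K to 800K. Each density had 1 array, so no value below has a replicate, and the labels do not say how many dishes went into an array. Cell number, cell contact and medium per cell changed together in this design and cannot be told apart.

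Epithelial cells in a sheet slow their division as they run out of space, a behaviour called contact inhibition. Junctions and the actin cytoskeleton feed into the Hippo pathway, which holds the co-activators YAP and TAZ out of the nucleus in dense cultures, and growth factor signalling weakens in parallel. Cells that leave the cycle lose the E2F-driven transcripts needed to copy DNA and the transcripts that the DREAM and MuvB complexes time to mitosis. Stratifying keratinocyte-type cells, to which basal mammary lines are related, also switch on cornified envelope and S100 genes when they are crowded. Dense cultures draw down amino acids as well, and the factor ATF4 answers amino acid shortage by inducing synthesis enzymes and transporters.

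Across 19775 genes the changes within this range were modest. The median size of the change from 400K to 800K was 0.0805 on the log2 scale, and 81 genes were at least 2-fold higher and 85 at least 2-fold lower at 800K than at 400K. Of these, 78 genes (0.394% of all genes) were higher at both steps and 83 genes (0.42%) were lower at both steps, together 161 genes (0.814%). Movement in one direction at both steps was common when no size was asked: 3913 genes (19.8%) were higher and 3919 genes (19.8%) lower at both, together 7832 (39.6%). At a limit of 1.5-fold the counts were 317 (1.6%) and 398 (2.01%), and with at least 0.2 log2 at each step they were 304 (1.54%) and 390 (1.97%). Neither step dominated, since 19 genes were 2-fold higher and 17 lower from 400K to 600K, against 19 and 19 from 600K to 800K. The 2 steps share the 600K array. At the 2-fold limit TNFAIP3 lay just inside at a fold of 2.001 and MIR210HG just outside at 1.998, and among the lower genes TAGLN lay inside at 2.003 and CHAF1B outside at 1.9997.

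**Figure D1:**
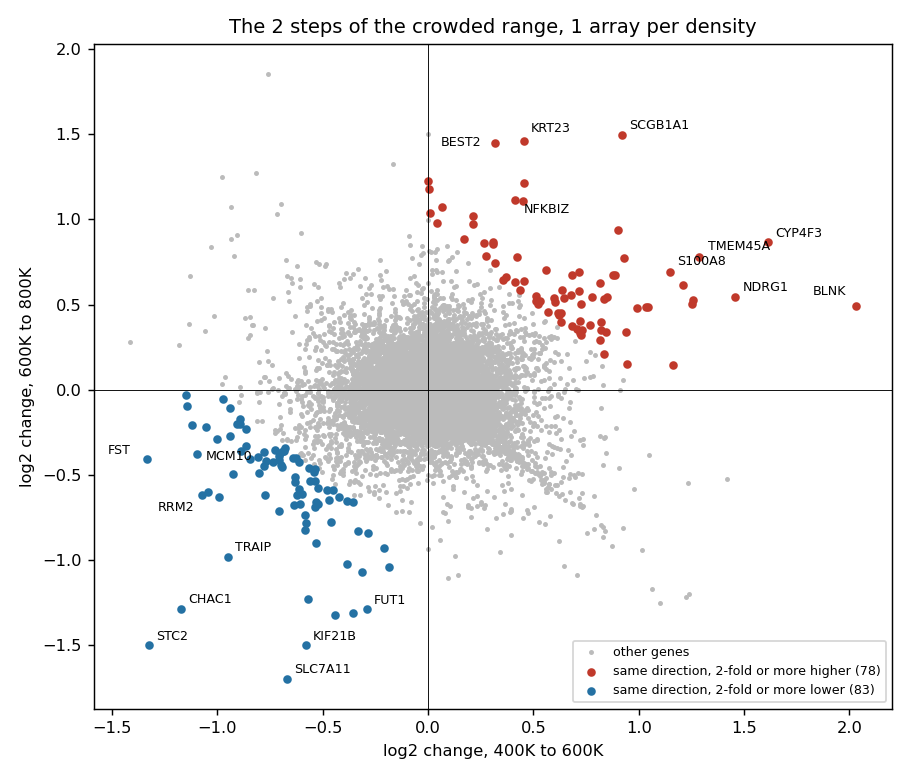
Each point is 1 of 19775 genes, with its log2 change from 400K to 600K on the horizontal axis and from 600K to 800K on the vertical axis. The 78 red genes were at least 2-fold higher and the 83 blue genes at least 2-fold lower over both steps together, BLNK reaching 5.76-fold higher and STC2 7.09-fold lower.

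The trend was tested in a fit that also used the sparser arrays. A line through the 3 crowded arrays alone, with 1 residual degree of freedom, called 158 rising and 236 falling genes, of which 72 and 159 were shared with the calls used here. For those, a broken line in log2 of the cells plated, with its break at 400K, was fitted to all 6 arrays with limma (3 residual degrees of freedom, two-sided, Benjamini-Hochberg adjustment over 19775 genes, threshold 0.05), and its slope above 400K is given below as log2 change per doubling of the cells ± standard error. The residuals hold dish, labelling and any departure from straight lines together. In this fit 116 genes (0.587%) rose and 213 genes (1.08%) fell, and "rose" and "fell" are used below only for these. The calls were fragile: 0 genes passed in limma when any 1 of the 6 arrays was left out, with smallest adjusted p-values from 0.0532 (600K left out) to 0.264 (800K left out), although 944 to 1726 rising and 997 to 1818 falling genes had an unadjusted p under 0.05. No gene passed either when each array was centred on its median (smallest adjusted p 0.0517; 1535 rising and 1921 falling at an unadjusted p under 0.05). These limits hold for every slope call below. The change of slope at 400K gave 0 calls in limma (smallest adjusted p 0.144), with 998 genes turning upward and 1154 turning downward at an unadjusted p under 0.05, so no gene is described as particular to the crowded range.

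The largest increases were in BLNK, CYP4F3 and SCGB1A1, with folds of 5.76, 5.58 and 5.35 from 400K to 800K. BLNK, an adaptor protein of B cell receptor signalling, had levels of 0.540, 0.566 and 0.674 at 50K, 100K and 200K, 4.09 at 600K and 5.76 at 800K, all relative to 400K. It was thus low and nearly flat on the sparser arrays and highest on the most crowded. BLNK rose with a slope of 2.78 ± 0.32 (adjusted p 0.0366), and its change of slope did not pass in limma (adjusted p 0.173). Its 1 probe set is of a kind prone to cross-hybridisation, so it has no value without such probe sets. CYP4F3, a cytochrome P450 that hydroxylates leukotriene B4 and fatty acids, stood at 0.468, 0.490 and 0.622 at 50K, 100K and 200K, 3.06 at 600K and 5.58 at 800K. It rose with a slope of 2.69 ± 0.21 (adjusted p 0.0269), although its probe set may also read near-identical CYP4F genes. SCGB1A1, the secreted airway protein uteroglobin, stood at 0.303, 0.392 and 0.449 at 50K, 100K and 200K, 1.89 at 600K and 5.35 at 800K, so most of its increase came at the last step. Its slope was 2.59 ± 0.32 (adjusted p 0.0377).

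The other genes among the 12 largest increases differed in when they increased. NDRG1, a stress- and hypoxia-responsive gene, stood at 2.75 at 600K and 4.01 at 800K and rose with a slope of 2.27 ± 0.29 (adjusted p 0.0391). TMEM45A, a membrane protein of keratinising epithelium, stood at 2.44 at 600K and 4.18 at 800K and rose with a slope of 2.32 ± 0.24 (adjusted p 0.0307). LAPTM5, a lysosomal membrane protein best known from haematopoietic cells, stood at 2.39 at 600K and 3.43 at 800K, with both of its probe sets higher (slope 1.70 ± 0.18, adjusted p 0.0313). In all 3 genes the first step was the larger on the log2 scale. KRT23, a type I keratin, stood at 1.37 at 600K and 3.77 at 800K, and BEST2, a chloride channel of the bestrophin family, at 1.25 at 600K and 3.41 at 800K, so most of both increases lay after 600K. Their slopes did not pass (adjusted p 0.0633 and 0.0911). NDRG1, LAPTM5 and KRT23 were read only by probe sets prone to cross-hybridisation. BBOX1, the last enzyme of carnitine synthesis, and MRGPRX3, a sensory-type G protein-coupled receptor, reached 3.37 and 3.58 at 800K without passing (adjusted p 0.0968 and 0.0872).

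Over the 78 genes, the first step held a median of 55.0% of the log2 increase, and the first step spans 58.5% of the range in log2 cells. In 11 genes at least 70% of the increase came before 600K and in 18 genes at most 30% did. Among the 27 genes with several probe sets, all probe sets pointed the same way over the range in 27 and at both steps in 22. The genes were chosen by the mean of these same probe sets, so this agreement is partly built in. The slope was called in 33 of the 78, against 0.587% of all genes rising. The slope is fitted to the same crowded arrays that chose these genes, so this count is also partly built in. Of the 78, 19 belonged to any of the 33 lists described below, 7 of them to the keratinocyte list.

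Among the 12 largest decreases, STC2 and CHAC1 belonged to the ATF4 list, SLC7A11 to the amino acid transporters and RRM2 to DNA replication. STC2, a secreted glycoprotein induced by ATF4, stood at 0.342, 0.285 and 0.280 at 50K, 100K and 200K, 0.400 at 600K and 0.141 at 800K, so it peaked on the 400K array and was lowest at 800K. CHAC1, a glutathione-degrading enzyme of the same response, stood at 0.0870, 0.136 and 0.110 at 50K, 100K and 200K, 0.443 at 600K and 0.182 at 800K. SLC7A11, the cystine importer, stood at 0.549, 0.423 and 0.302 at 50K, 100K and 200K, 0.628 at 600K and 0.193 at 800K, with all 3 of its probe sets lower at 800K. Their fitted errors were wide and their slopes did not pass (adjusted p 0.194, 0.543 and 0.419). KIF21B, a kinesin motor, had the same shape, at 0.217 on the 200K array, 0.669 at 600K and 0.236 at 800K (adjusted p 0.504).

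TRAIP, a ubiquitin ligase that acts at stalled replisomes, stood at 0.518 at 600K and 0.263 at 800K and fell with a slope of -1.77 ± 0.21 (adjusted p 0.0368). NEIL3, a DNA glycosylase that opens cross-links during replication, stood at 0.675 at 600K and 0.287 at 800K and fell with a slope of -1.70 ± 0.25 (adjusted p 0.0481). SPINK6, a skin-type inhibitor of kallikrein proteases, was already lower at 400K than at 50K, where it stood at 3.16, and it continued to 0.475 at 600K and 0.310 at 800K (slope -1.89 ± 0.28, adjusted p 0.0484). FST, the activin inhibitor follistatin, had most of its decrease at the first step, with 0.397 at 600K and 0.299 at 800K, and all 3 probe sets lower (adjusted p 0.0519). AMIGO2, a cell adhesion protein, stood at 4.29 on the 50K array and at 0.484 at 600K and 0.319 at 800K (adjusted p 0.0563). HSF2BP, a partner of BRCA2 in meiosis, and FUT1, the fucosyltransferase of H antigen, reached 0.315 and 0.334 at 800K, mostly after 600K, and did not pass (adjusted p 0.0673 and 0.181).

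Over the 83 genes the first step held a median of 54.9% of the log2 decrease, with 16 genes at 70% or more and 11 at 30% or less. Of 31 genes with several probe sets, all agreed over the range in 28 and at both steps in 27, an agreement again partly built in by the choice. The slope was called in 54, against 1.08% of all genes falling, a count partly built in by the choice as well. Of the 83 genes, 26 belonged to a list, 15 of them to DNA replication, 5 to the ATF4 response and 2 to mitosis.

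**Figure D2:**
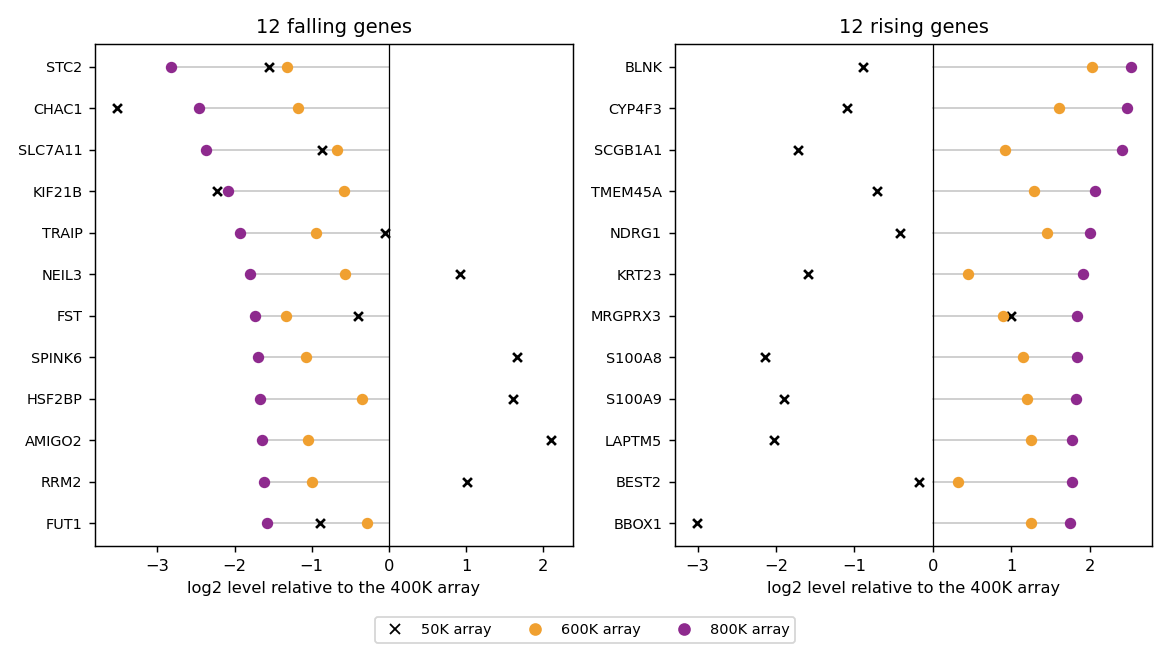
Log2 level relative to the 400K array (vertical line at 0) for the 12 largest decreases (left) and increases (right) among genes that moved at least 0.2 log2 at each step with all probe sets agreeing. Crosses are the 50K array, orange points the 600K array and purple points the 800K array, which lies farther from 0 than the 600K array in every row.

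Of the 33 lists, the genes that copy DNA had the most members lower by at least 2-fold. Of 33 measured replication and S phase genes, 0 were higher and 30 lower at both steps (19.8% of all genes were lower at both), 15 by at least 2-fold (0.42% of all genes), and 21 fell in the slope fit (1.08% of all genes). The median change from 400K to 800K was -0.99 on the log2 scale, against 0.01 over all genes, and it was -0.58 at the first step and -0.38 at the second. From 50K to 400K, a comparison that shares the 400K array, the median was -0.58. The shares over all genes apply to every list below. They are 19.8% higher and 19.8% lower at both steps, 0.394% and 0.42% by at least 2-fold, and 0.587% rising and 1.08% falling.

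RRM2, the regulated subunit of ribonucleotide reductase that makes deoxynucleotides, stood at 2.02, 1.61 and 1.46 at 50K, 100K and 200K, 0.503 at 600K and 0.325 at 800K. Its level declined over the whole series, with a slope above 400K of -1.72 ± 0.12 (adjusted p 0.0269). That slope was steeper than the one below 400K, but the change of slope did not pass in limma (adjusted p 0.144). The licensing factor CDC6 stood at 0.527 at 600K and 0.373 at 800K (slope -1.63 ± 0.21, adjusted p 0.0396). The helicase subunits MCM2, MCM3, MCM5 and MCM6 stood close together at 800K, at 0.409, 0.468, 0.460 and 0.453, with adjusted p-values of 0.0269, 0.0269, 0.0269 and 0.0428. MCM10, which activates the helicase, stood at 0.468 at 600K and 0.359 at 800K (adjusted p 0.0396), and its change shrank from -1.48 to -0.93 log2 without probe sets prone to cross-hybridisation. MCM4 was lower by less, at 0.647, with 4 of its 5 probe sets lower and no call (adjusted p 0.0659).

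Polymerase genes spread more widely. The primase subunit PRIM1 and the polymerase epsilon subunit POLE2 stood at 0.427 and 0.436 at 800K, and both fell (adjusted p 0.0281 and 0.0428). PCNA, the sliding clamp, stood at 0.671 at 600K and 0.613 at 800K and fell with a slope of -0.76 ± 0.10 (adjusted p 0.0411). POLA2, ORC1 and E2F1 were the 3 members without a one-way path: they were lowest at 600K, at 0.821, 0.583 and 0.698, and slightly higher at 800K, at 0.830, 0.614 and 0.722. CCNE2, cyclin E2, which starts S phase, had nearly all of its decrease in the first step, at 0.453 at 600K and 0.424 at 800K (adjusted p 0.0890).

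The promoters of these genes are shown because the members moved together. Matches were counted in RefSeq promoter windows (GRCh38.p14), from 250 bases before the start to 50 bases after it. A match to the E2F letters TTTGGCGC or TTTCCCGC on either strand was present in 15 of the 30 replication genes with a promoter window (50%). The share among all 27305 promoters was 2.31%. This pattern was chosen after the values had been seen. For MCM6 and MCM3 the 250 bases before the start follow, 5′ to 3′ on the gene's strand, with the matches in capitals. In MCM6 the matches begin 152 and 90 bases before the start, and in MCM3 the match begins 174 bases before it. A match is a run of letters and not a measured binding site.
MCM6 (chr2:135876444-135876693, minus strand): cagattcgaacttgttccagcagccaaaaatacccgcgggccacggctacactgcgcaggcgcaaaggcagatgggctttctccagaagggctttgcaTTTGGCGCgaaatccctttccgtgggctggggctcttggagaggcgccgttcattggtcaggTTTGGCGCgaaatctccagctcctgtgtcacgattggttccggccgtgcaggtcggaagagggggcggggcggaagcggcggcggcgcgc
MCM3 (chr6:52284743-52284992, minus strand): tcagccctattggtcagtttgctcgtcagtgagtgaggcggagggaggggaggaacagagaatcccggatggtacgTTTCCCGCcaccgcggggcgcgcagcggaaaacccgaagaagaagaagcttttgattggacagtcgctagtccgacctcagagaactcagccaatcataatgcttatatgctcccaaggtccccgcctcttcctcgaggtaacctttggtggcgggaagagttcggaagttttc

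Mitotic genes were lower too, by smaller amounts and with more of the change after 600K. Of 30 genes, 0 were higher and 29 lower at both steps, against 19.8% of all genes lower at both. By at least 2-fold 2 were lower (0.42% of all genes), and 12 fell in the slope fit (1.08% of all genes). The median was -0.73 log2 over the range, -0.33 at the first step and -0.39 at the second. AURKB, the chromosomal passenger kinase, stood at 2.11, 1.57 and 1.21 at 50K, 100K and 200K, 0.653 at 600K and 0.486 at 800K, and fell (adjusted p 0.0269). NDC80, the kinetochore protein that holds microtubules, stood at 0.954, 0.910 and 0.856 at 50K, 100K and 200K, 0.657 at 600K and 0.412 at 800K. It was therefore near its 400K level on all sparser arrays and fell above 400K (slope -1.15 ± 0.13, adjusted p 0.0368), though its change of slope, like that of every gene, did not pass. FOXM1, the factor that drives mitotic transcripts, and the kinesin KIF2C stood at 0.507 and 0.525 at 800K and both fell (adjusted p 0.0370 and 0.0307). Cyclin B1 (CCNB1), the partner of CDK1, stood at 0.864 at 600K and 0.585 at 800K and did not pass (adjusted p 0.0684). CCNB2 was the smallest decrease, at 0.918, with 1 of its 3 probe sets lower.

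The CHR letters TTTGAA, the element that MuvB complexes read in mitotic promoters, were found on either strand in 16 of 24 promoters of the list (66.7%), against 15.4% of all 27305. HMMR, a spindle-associated protein, ANLN, the cytokinesis scaffold anillin, and CDC20, the activator of the anaphase-promoting complex, are shown with these letters in capitals. In HMMR and ANLN a pair of matches lies side by side, beginning 28 and 22 bases before the start in HMMR and 26 and 20 in ANLN, and in CDC20 matches begin 178 and 65 bases before it. At 800K the levels of these genes were 0.544 for HMMR, 0.563 for ANLN and 0.583 for CDC20, with adjusted p-values of 0.0725, 0.0307 and 0.0563, so of these 3 genes only ANLN fell by the test.
HMMR (chr5:163460382-163460631, plus strand): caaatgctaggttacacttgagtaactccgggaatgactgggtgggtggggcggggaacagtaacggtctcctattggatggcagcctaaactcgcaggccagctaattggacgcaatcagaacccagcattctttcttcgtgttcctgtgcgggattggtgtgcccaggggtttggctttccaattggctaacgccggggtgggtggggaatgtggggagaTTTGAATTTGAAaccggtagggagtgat
ANLN (chr7:36389612-36389861, plus strand): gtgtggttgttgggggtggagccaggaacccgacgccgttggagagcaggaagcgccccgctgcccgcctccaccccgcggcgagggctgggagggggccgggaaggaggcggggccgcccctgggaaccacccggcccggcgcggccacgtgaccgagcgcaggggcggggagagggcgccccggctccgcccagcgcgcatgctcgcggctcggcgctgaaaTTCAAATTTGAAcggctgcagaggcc
CDC20 (chr1:43358731-43358980, plus strand): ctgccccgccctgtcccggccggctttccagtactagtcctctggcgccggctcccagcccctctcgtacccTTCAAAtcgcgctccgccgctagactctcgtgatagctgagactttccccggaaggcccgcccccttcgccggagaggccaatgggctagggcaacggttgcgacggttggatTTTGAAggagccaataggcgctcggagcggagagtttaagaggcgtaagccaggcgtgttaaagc

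The first step held different shares of the decrease in the 2 cell cycle lists. Of the 30 replication genes that were lower at both steps, 21 had more than 58.5% of the log2 decrease between 400K and 600K, which is that step's share of the log2 range. Among the 29 mitotic genes the count was 5, and among all 7832 genes that moved one way it was 3394. Both counts rest on the same 600K array and were not tested against each other. PKMYT1, the kinase that restrains CDK1 before mitosis, was among the 4 smallest slope p-values, at 0.585 at 600K and 0.381 at 800K with a slope of -1.44 ± 0.08 (adjusted p 0.0269). In bulk RNA, fewer cycling cells and less of these transcripts per cell cannot be told apart.

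Members of the ATF4 list differed in the array on which they were highest. Of 25 genes, 0 were higher and 15 lower at both steps, against 19.8% of all genes lower at both. By at least 2-fold 5 were lower (0.42% of all genes), and 1 fell in the slope fit (CTH), against 1.08% of all genes. The list's median was -0.07 log2 at the first step, -0.34 at the second and -0.43 over both, and from 50K to 400K, with the 400K array shared, it was 1.04. That span holds 3 doublings of the cells plated against 1 from 400K to 800K, so medians over the 2 spans are not per doubling unless stated. One set was highest at 400K. Besides STC2 and CHAC1 this set held SESN2, a leucine sensor that restrains mTORC1, at 0.305 on the 200K array and 0.460 at 600K and 0.397 at 800K, and TRIB3, a pseudokinase that feeds back on ATF4, at 0.377 and then 0.726 at 600K and 0.423 at 800K. CTH, which makes cysteine from cystathionine, stood at 0.674 at 200K and 0.646 at 600K and 0.443 at 800K, with a slope of -1.04 ± 0.15 (adjusted p 0.0481). These 5 genes were grouped by being highest at 400K, so their lower levels on both neighbouring arrays are part of the choice.

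Another set was highest at 600K. PHGDH, the first enzyme of serine synthesis, stood at 0.303, 0.311 and 0.359 at 50K, 100K and 200K, 1.66 at 600K and 1.33 at 800K. CBS, which condenses serine and homocysteine, stood at 0.355, 0.429 and 0.409 at 50K, 100K and 200K, 1.55 at 600K and 1.06 at 800K. ASNS, asparagine synthetase, stood at 0.373, 0.445 and 0.463 at 50K, 100K and 200K, 1.30 at 600K and 1.05 at 800K, with its 2 probe sets in disagreement on the direction from 400K to 800K. These enzymes thus were higher at 600K than at 400K while STC2, CHAC1, SESN2, TRIB3 and CTH were lower, and all 8 were lower at 800K than at 600K. The sets were sorted by the single array on which each gene was highest, so this difference at 600K is built in by the sorting. PSAT1, also of serine synthesis, stood at 1.15 at 600K and 0.684 at 800K, and NUPR1, a stress-induced chromatin protein, at 1.30 at 600K and 0.889 at 800K. ATF4 itself, a factor controlled mainly through its translation, stood at 0.952 at 600K and 0.786 at 800K. No slope in this set passed (adjusted p 0.451 for PHGDH and 0.717 for CBS).

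A match to the CARE letters TGATGNAAN, the composite element bound by ATF4 with a C/EBP factor, was present on either strand in 3 of 19 promoters of the list (15.8%), against 3.67% of all promoters. In the lists of the next paragraph it was present in 3 of 9 amino acid transporters (33.3%) and 5 of 14 aminoacyl-tRNA synthetases (35.7%). The median changes of these lists were -0.49 and -0.15 log2. Whether matches go with the size of a decrease was not tested. CHAC1, whose level was highest at 400K, and ASNS, whose level was highest at 600K, are shown side by side, a pair picked after their values had been seen. The match begins 210 bases before the start in CHAC1, on the opposite strand, and 68 bases before it in ASNS.
CHAC1 (chr15:40953221-40953470, plus strand): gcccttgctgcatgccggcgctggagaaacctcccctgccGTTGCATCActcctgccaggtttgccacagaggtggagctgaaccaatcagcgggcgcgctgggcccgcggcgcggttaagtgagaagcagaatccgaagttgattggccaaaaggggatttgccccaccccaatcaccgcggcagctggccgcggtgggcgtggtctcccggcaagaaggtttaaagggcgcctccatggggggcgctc
ASNS (chr7:97872409-97872658, minus strand): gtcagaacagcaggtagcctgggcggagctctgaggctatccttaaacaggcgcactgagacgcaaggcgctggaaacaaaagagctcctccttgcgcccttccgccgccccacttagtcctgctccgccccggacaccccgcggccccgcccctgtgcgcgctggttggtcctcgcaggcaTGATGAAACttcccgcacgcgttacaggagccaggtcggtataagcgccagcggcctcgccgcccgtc

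Amino acid transporters of the same response had most of their median decrease after 600K. Of 11, 0 were higher and 6 lower at both steps, with medians of -0.05 and -0.44 log2 at the successive steps. The median over both steps was -0.49, and -0.13 over the 7 genes left without probe sets prone to cross-hybridisation. SLC3A2, the heavy chain shared by several exchangers, stood at 0.933 at 600K and 0.625 at 800K, and SLC7A5, its large neutral amino acid partner, at 0.962 at 600K and 0.710 at 800K. SLC1A5, a glutamine transporter, stood at 0.944 at 600K and 0.643 at 800K. SLC1A4, which carries serine and alanine, stood at 1.06 at 600K and 0.640 at 800K, a change of -0.64 log2 that was -0.01 without probe sets prone to cross-hybridisation. In limma 0 of the 11 passed the slope test (0 rising and 1 falling at an unadjusted p under 0.05). The 17 cytosolic aminoacyl-tRNA synthetases, which load tRNAs, had 0 higher and 6 lower at both steps, and medians of 0.01 and -0.21. Their median over both steps was -0.15, and -0.30 without probe sets prone to cross-hybridisation. SARS1 and GARS1, for serine and glycine, stood at 0.700 and 0.725 at 800K, against 0.929 and 1.09 at 600K, and 0 of the 17 passed in limma (0 rising and 1 falling at an unadjusted p under 0.05).

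**Figure D3:**
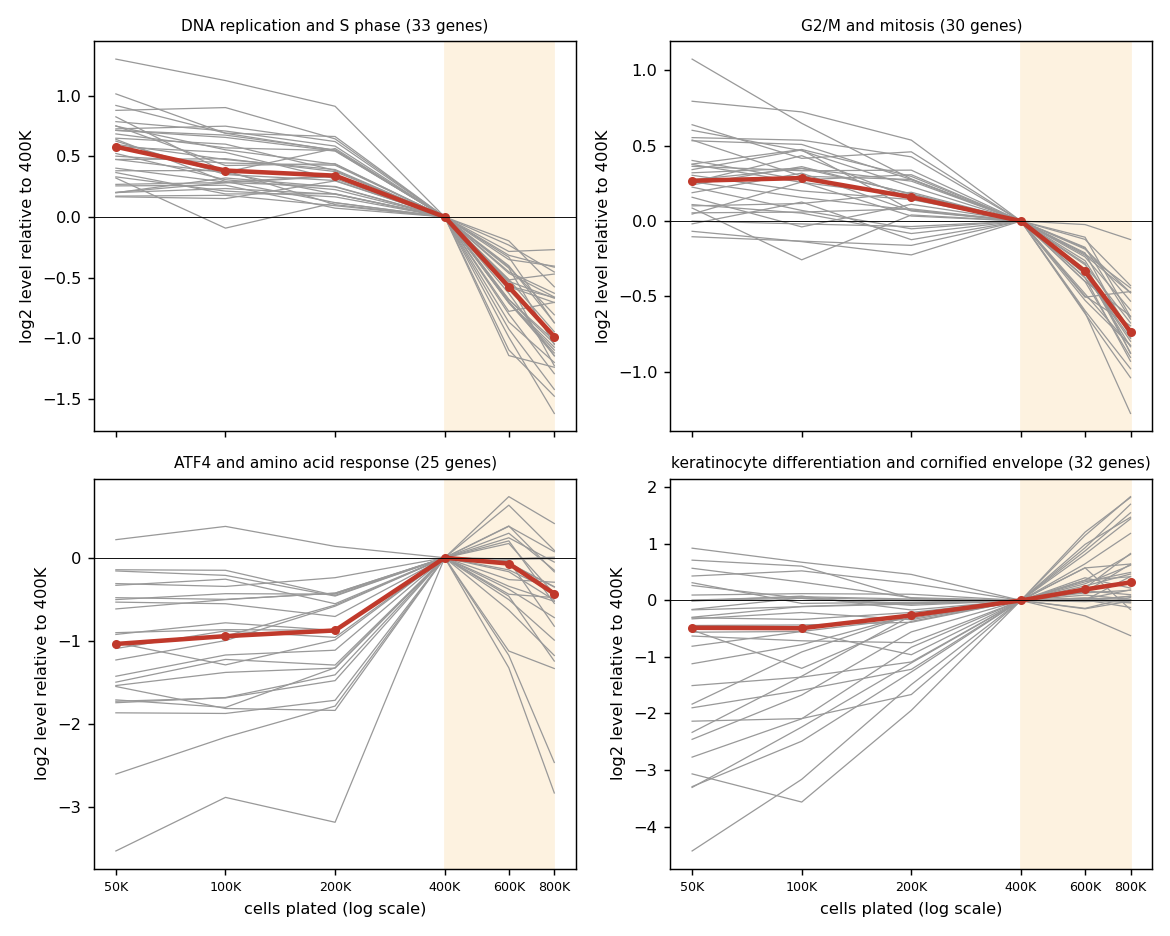
Log2 level relative to the 400K array against the cells plated (log scale) for 4 gene lists, with a grey line per gene, the list's median in red and the crowded range shaded. Replication and mitosis genes all lie below 0 beyond 400K, ATF4 genes separate into lines above and below 0 at 600K, and a subset of keratinocyte genes continues upward to 800K.

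Of the same lists, keratinocyte differentiation had the most members higher by at least 2-fold. Of 32 measured, 19 were higher and 1 lower at both steps (19.8% of all genes were higher at both), 7 were at least 2-fold higher (0.394% of all genes), and 5 rose in the slope fit (0.587% of all genes). The median was 0.32 log2 from 400K to 800K and 0.48 from 50K to 400K. S100A8 and S100A9, the subunits of the antimicrobial protein calprotectin, kept close to each other: S100A8 stood at 0.227, 0.235 and 0.315 at 50K, 100K and 200K, 2.22 at 600K and 3.57 at 800K, and S100A9 at 0.268, 0.333 and 0.430 at 50K, 100K and 200K, 2.31 at 600K and 3.54 at 800K. Both were higher at every step of the series. S100A9 rose above 400K (slope 2.14 ± 0.30, adjusted p 0.0440) and S100A8 did not pass (slope 2.34 ± 0.48, adjusted p 0.0863). S100A7, psoriasin, had another path, at 1.90, 1.60 and 1.38 at 50K, 100K and 200K, 1.57 at 600K and 2.28 at 800K, lowest on the 400K array, and it rose above 400K (slope 1.10 ± 0.10, adjusted p 0.0269).

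TGM1, the transglutaminase that cross-links the envelope, stood at 0.102, 0.178 and 0.416 at 50K, 100K and 200K, 1.76 at 600K and 2.72 at 800K, and rose with a slope of 1.54 ± 0.15 (adjusted p 0.0269). KRT15, a keratin of basal cells and not of the envelope, was the lowest of the list on the 50K array, at 0.0463, 0.111 and 0.356 at 50K, 100K and 200K, and went on to 1.99 at 600K and 2.77 at 800K (slope 1.53 ± 0.13, adjusted p 0.0269). The small proline-rich envelope proteins SPRR1A and SPRR1B stood at 3.26 and 2.93 at 800K (adjusted p 0.0397 and 0.0513). These 2 genes are closely related in sequence, so their probe sets may share signal. The terminal markers KRT1, FLG and KRTDAP stayed at 1.05, 1.07 and 0.978, and the grainyhead factor GRHL3, which had reached its 400K level from 0.101 at 50K, stood at 1.10 at 600K and 1.13 at 800K. KLF4, a differentiation factor, was the 1 member lower at both steps, at 0.827 at 600K and 0.649 at 800K (adjusted p 0.852).

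Junction genes changed little within the range. Of 23, 10 were higher and 3 lower at both steps (43.5% and 13.0%, against 19.8% of all genes each way). The median was 0.11 log2 against 0.49 from 50K to 400K. The increases that stood out were desmosomal cadherins: DSG3 stood at 1.20 at 600K and 1.48 at 800K, DSC3 at 1.18 at 600K and 1.47 at 800K and DSC2 at 1.13 at 600K and 1.57 at 800K. DSG3 alone rose by the test (slope 0.58 ± 0.07, adjusted p 0.0370), and DSC3 and DSC2 had adjusted p-values of 0.162 and 0.468. E-cadherin (CDH1), the core of adherens junctions, stood at 1.04 at 600K and 1.11 at 800K. The tight junction gene OCLN stood at 0.289 on the 50K array and 0.912 at 800K, and CLDN7 at 0.190 and 1.08.

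YAP/TAZ targets, which respond to cell spreading, had negative medians in both spans. Over 24 genes the median was -0.62 log2 from 50K to 400K, which is -0.21 per doubling, and -0.20 over the 1 doubling from 400K to 800K. At both crowded steps 2 genes were higher and 13 lower (8.33% and 54.2%, against 19.8% of all genes each way). By the slope test 4 fell, against 1.08% of all genes. CCN1 and CCN2, matricellular proteins and the best-known targets, stood at 5.23 and 4.95 on the 50K array and at 0.863 and 0.698 at 800K (adjusted p 0.644 and 0.165). AMOTL2, a junctional inhibitor of YAP, stood at 0.651 at 600K and 0.424 at 800K and fell with a slope of -1.19 ± 0.12 (adjusted p 0.0282). F3, tissue factor, stood at 3.59 on the 50K array and 0.629 at 600K and 0.515 at 800K (adjusted p 0.0285). TGFB2 stood at 0.486 at 800K (adjusted p 0.0368), and its change of -1.04 log2 was -0.57 without probe sets prone to cross-hybridisation. GADD45B, also called, stood at 0.642 (adjusted p 0.0387), with 3 of its 4 probe sets lower, and its change was 0.16 log2, in the other direction, without those prone to cross-hybridisation.

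The TGF-beta and actin lists had small medians here, 0.04 and -0.04 log2 (0.030 for actin without probe sets prone to cross-hybridisation), against -0.45 and -0.33 over the 3 doublings from 50K to 400K. Of 22 TGF-beta targets, 7 were higher and 8 lower at both steps (31.8% and 36.4%, against 19.8% of all genes each way). THBS1, the matrix protein thrombospondin, stood at 2.95 at 50K and 0.507 at 800K and fell (adjusted p 0.0373), though its change of -0.98 log2 was -0.31 without probe sets prone to cross-hybridisation. COL4A1, basement membrane collagen, fell to 0.584 (adjusted p 0.0368), while COL7A1, the anchoring fibril collagen, stood at 1.42 at 600K and 2.09 at 800K (adjusted p 0.0848). Of 22 actin genes, 3 were higher and 7 lower (13.6% and 31.8%). MYL9, the regulatory myosin light chain, stood at 0.559 (adjusted p 0.0481), a change of -0.84 log2 that was -0.29 without those probe sets. TAGLN, transgelin, stood at 0.499 and did not pass (adjusted p 0.0652), and without those probe sets its direction turned, to a log2 change of 0.24. The 28 extracellular matrix genes had 7 higher and 7 lower (25% each, near the 19.8% of all genes) and a median of 0.01. PLAT, tissue plasminogen activator, rose to 1.52 (adjusted p 0.0442).

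Of 20 CDK inhibitors and quiescence genes, 11 were higher and 1 lower at both steps, and the median was 0.15 log2. CDKN1C, the inhibitor p57, stood at 0.370 on the 50K array and 1.44 at 600K and 1.68 at 800K and rose (slope 0.74 ± 0.07, adjusted p 0.0278), with 4 of its 5 probe sets higher and a change of 0.75 log2 that was 0.41 without those prone to cross-hybridisation. YPEL5 stood at 1.62 at 600K and 1.98 at 800K and also rose (adjusted p 0.0387). CDKN1B, the inhibitor p27 that is controlled largely at the protein level, was lower on both arrays, at 0.824 at 600K and 0.884 at 800K (adjusted p 1.000). Of 23 p53 targets, 12 were higher and 4 lower at both steps (52.2% and 17.4%, against 19.8% of all genes each way). Their median was 0.23, with 0 slope calls in limma (9 rising and 1 falling at an unadjusted p under 0.05). TP53I3, an oxidoreductase, had the largest increase, at 1.45 at 600K and 1.501 at 800K (adjusted p 0.0652). SESN2, counted above with ATF4, was the largest decrease of this list.

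In the glycolysis and hypoxia list few members increased by much, with 12 of 27 higher and 3 lower at both steps and a median of 0.07 log2 (0.0068 without probe sets prone to cross-hybridisation). Besides NDRG1, the neuronal-type glucose transporter SLC2A3 stood at 0.641, 0.670 and 0.777 at 50K, 100K and 200K, 1.65 at 600K and 2.06 at 800K, and rose (slope 1.15 ± 0.12, adjusted p 0.0307). Aldolase C (ALDOC) stood at 1.34 at 600K and 1.52 at 800K and rose (adjusted p 0.0370). The core enzymes LDHA, PGK1 and PKM, by contrast, stood at 1.02, 1.07 and 1.00 at 800K. BNIP3L, a mitophagy receptor and one of the 4 smallest slope p-values, stood at 0.807, 0.840 and 0.895 at 50K, 100K and 200K, 1.47 at 600K and 1.93 at 800K, and rose with a slope of 0.98 ± 0.06 (adjusted p 0.0269). CALCOCO1, an autophagy receptor of the endoplasmic reticulum, stood at 0.917, 0.915 and 0.980 at 50K, 100K and 200K, 1.51 at 600K and 2.20 at 800K, nearly flat before 400K, and rose with a slope of 1.12 ± 0.07 (adjusted p 0.0269). Its change of slope had an adjusted p of 0.144. SLC2A3 and CALCOCO1 were read only by probe sets prone to cross-hybridisation. SPAG1, a dynein assembly factor, was the falling gene beside PKMYT1 among those 4, at 0.583 at 600K and 0.427 at 800K with a slope of -1.24 ± 0.07 (adjusted p 0.0269).

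Of 33 interferon-stimulated genes, 17 were higher and 2 lower at both steps (51.5% and 6.06%, against 19.8% of all genes each way). The median was 0.17 log2. OAS1, which senses double-stranded RNA, stood at 0.554, 0.591 and 0.903 at 50K, 100K and 200K, 1.47 at 600K and 2.40 at 800K, and rose (slope 1.19 ± 0.16, adjusted p 0.0428). IFI44L stood at 1.44 at 600K and 1.75 at 800K and rose (adjusted p 0.0428). The classical members ISG15, MX1 and IFIT1 stood at 0.945, 1.00 and 1.02 at 800K. Of 24 NF-kB targets, 10 were higher and 6 lower at both steps (41.7% and 25%). They had 0 slope calls in limma (9 rising and 1 falling at an unadjusted p under 0.05). NFKBIZ, a nuclear IkB protein of epithelial defence, stood at 0.864, 0.915 and 0.723 at 50K, 100K and 200K, 1.33 at 600K and 2.88 at 800K (adjusted p 0.0613), and TNFAIP3, the feedback inhibitor A20, at 1.94, 1.10 and 0.691 at 50K, 100K and 200K, 1.28 at 600K and 2.00 at 800K (adjusted p 0.166). NFKBIZ made most of its increase after 600K, while TNFAIP3 was lowest at 200K.

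Among 17 glucocorticoid-induced genes, 8 were higher and 2 lower at both steps (median 0.18 log2, and 0.69 from 50K to 400K) with hydrocortisone in the medium at every density. Without probe sets prone to cross-hybridisation the median from 400K to 800K was 0.43. GLUL, glutamine synthetase, stood at 0.358, 0.399 and 0.571 at 50K, 100K and 200K, 1.65 at 600K and 2.18 at 800K, all 4 probe sets higher (adjusted p 0.0505). SGK1, a kinase of sodium and potassium transport, stood between 0.875 and 1.04 on the sparser arrays and rose to 1.74 (slope 0.88 ± 0.12, adjusted p 0.0404). SERPINA3, a protease inhibitor, stood at 2.23 at 600K and 2.47 at 800K (adjusted p 0.0923). NRF2 targets went both ways, with 8 of 20 higher and 7 lower (40% and 35%, against 19.8% of all genes each way). The aldo-keto reductases AKR1C2, AKR1C3 and AKR1B10 stood at 1.93, 2.503 and 2.45 at 800K, and SLC7A11 was the largest decrease. AKR1C2 rose (adjusted p 0.0368), but the AKR1C genes are near-identical and their probe sets may share signal. Among 28 ERK feedback and immediate early genes, 9 were higher and 6 lower (32.1% and 21.4%, the latter near the share of all genes). Their median from 400K to 800K was -0.03 log2, with 13 genes higher and 15 lower at 800K than at 400K. In the slope fit 0 rose and 1 fell. The largest increases of this list were in FOS, FOSB and EGR1, at 2.17, 2.07 and 1.99 at 800K. FOS also varied between the sparser arrays, at 0.377, 0.937 and 0.497 at 50K, 100K and 200K. None of the 3 passed (adjusted p 0.306, 0.433 and 0.110).

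The remaining metabolic and housekeeping lists had few one-way members or small medians. Over all genes 19.8% were higher and 19.8% lower at both steps, and Notch genes lay near this, at 25% and 18.8%. Counted at both steps, oxidative phosphorylation had 12 higher and 1 lower of 24 (median 0.13), ribosome biogenesis and MYC targets had 3 higher and 11 lower of 21 (median -0.16), and the unfolded protein response had 2 higher and 10 lower of 21 (median -0.09). Heat shock proteins had 1 higher and 7 lower of 14 (median -0.16), cholesterol synthesis 5 higher and 2 lower of 18 (median -0.01, and 0.18 without probe sets prone to cross-hybridisation) and fatty acid synthesis 2 higher and 4 lower of 14 (median -0.08). For lysosome and autophagy the counts were 9 higher and 5 lower of 23 (median 0.09), and for Notch genes 4 higher and 3 lower of 16 (median 0.03, and -0.027 without those probe sets). For the joint list of thioredoxin-binding arrestins and MondoA targets they were 4 higher and 1 lower of 8 (median 0.16). Fatty acid synthesis had a median of 0.51 from 50K to 400K, against -0.08 here. In these 9 lists the slope was called for 1 gene, GLA, a lysosomal galactosidase that fell to 0.651 (adjusted p 0.0307). HSPA5, the chaperone BiP, stood at 0.722 (adjusted p 0.0521), and ODC1, the first enzyme of polyamine synthesis, at 0.682 (adjusted p 0.0841).

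**Figure D4:**
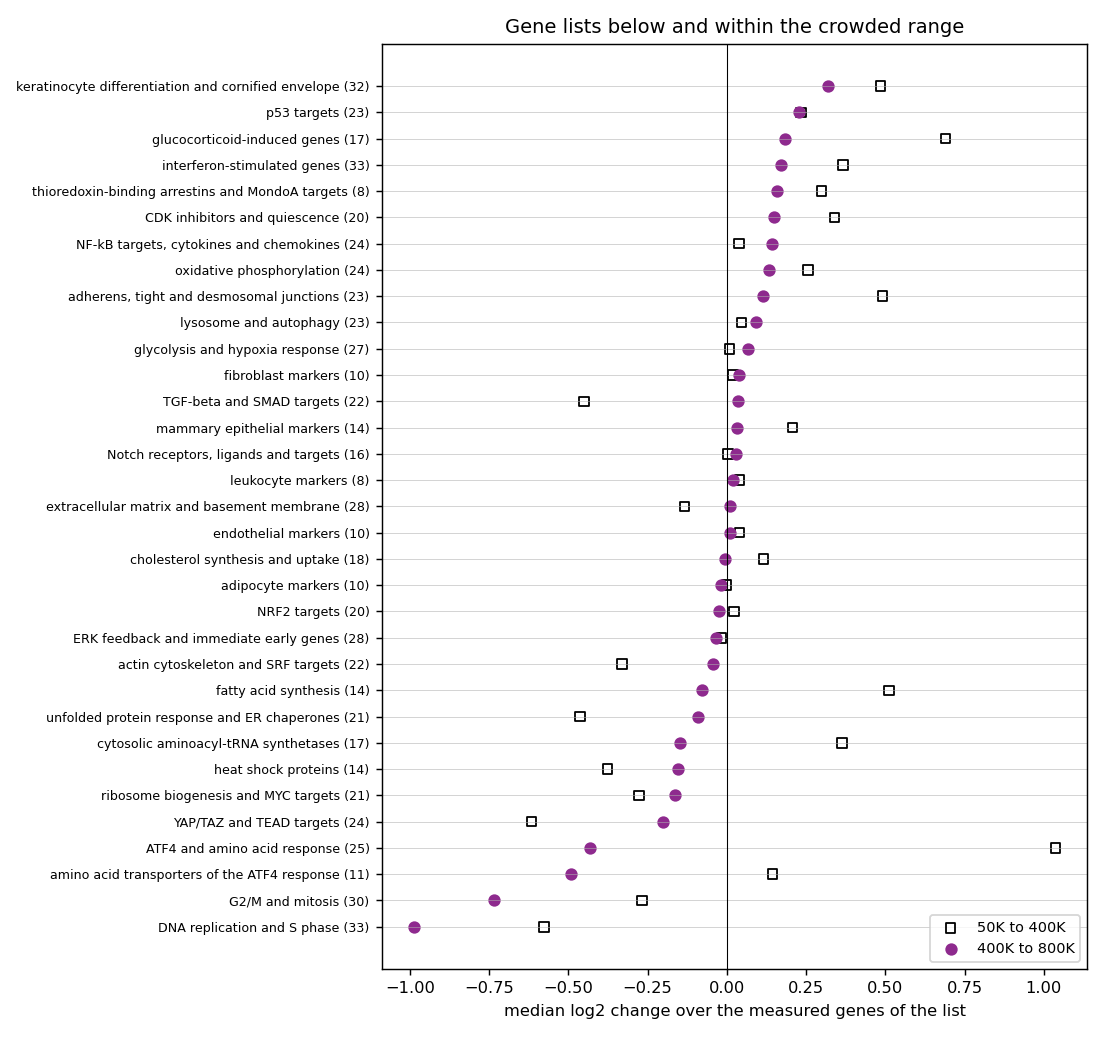
Median log2 change of each gene list from 50K to 400K (open squares) and from 400K to 800K (purple points), comparisons that share the 400K array and span 3 doublings and 1 doubling of the cells, with the number of genes measured in brackets. Replication, mitosis and amino acid transporter lists lie farthest left within the crowded range, and the ATF4 list has its square at 1.04 and its point at -0.43.

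Several genes turned at or near the 400K array. The genes ranked had probe sets in agreement and at least 0.2 log2 in one direction at each crowded step. Unnamed transcripts (such as LINC symbols) were left aside, and the rank was by the smaller of the changes before and after 400K. The 6 with the largest increase to 400K followed by a decrease were CHAC1, KIF21B, STC2, SESN2, TRIB3 and CTH. Of these, 5 belong to the ATF4 list, which holds 25 of the 19775 genes. The median of that whole list was 0.87 log2 higher at 400K than at 200K, so its members share a high reading on 1 array. The 6 with the opposite course were LYPD3, MRGPRX3, TNFAIP3, S100A7, SPRR3 and ZNF296. LYPD3, a keratinocyte adhesion protein, stood at 2.17, 1.49 and 1.30 at 50K, 100K and 200K, 1.77 at 600K and 2.25 at 800K, so it was lowest on the 400K array, and it rose above it (slope 1.21 ± 0.12, adjusted p 0.0269; change of slope, adjusted p 0.144). MRGPRX3 stood at 1.99, 0.840 and 0.784 at 50K, 100K and 200K, 1.87 at 600K and 3.58 at 800K, a dip that spans 3 arrays. Both directions are read against the single 400K array. None of the 12 slopes passed in limma without that array (adjusted p from 0.0951 to 0.979), and 0 of all 19775 genes did. The 12 genes were chosen for their steps after 400K, and that fit keeps the 600K and 800K arrays, so the signs of its slopes are partly built in. The 6 genes that were lowest near 400K kept a positive slope in that fit, from 0.30 to 2.98 (LYPD3 1.19, S100A7 0.99). Of the 6 that were highest near it, 4 kept a negative slope, while CHAC1 and SESN2 turned, from -1.48 to 0.070 and from -0.86 to 0.26. Set against the 200K array, the 800K array was higher for 4 of those 6 and lower for STC2 and CTH. CHAC1 stood at 0.110 at 200K and 0.182 at 800K, KIF21B at 0.217 and 0.236, TRIB3 at 0.377 and 0.423, SESN2 at 0.305 and 0.397, STC2 at 0.280 and 0.141, and CTH at 0.674 and 0.443.

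At single steps the extremes included genes outside the one-way set. PLCB4, a phospholipase C, had one of the largest first-step decreases, at 4.87, 3.11 and 2.00 at 50K, 100K and 200K, 0.375 at 600K and 0.456 at 800K. SERPINB4, a squamous epithelial protease inhibitor, was flat through 600K, at 1.04, 1.00 and 0.985 at 50K, 100K and 200K and 0.999 at 600K, and reached 2.83 at 800K. Its single probe set may also read the near-identical SERPINB3. Neither passed (adjusted p 0.147 and 0.175).

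**Figure D5:**
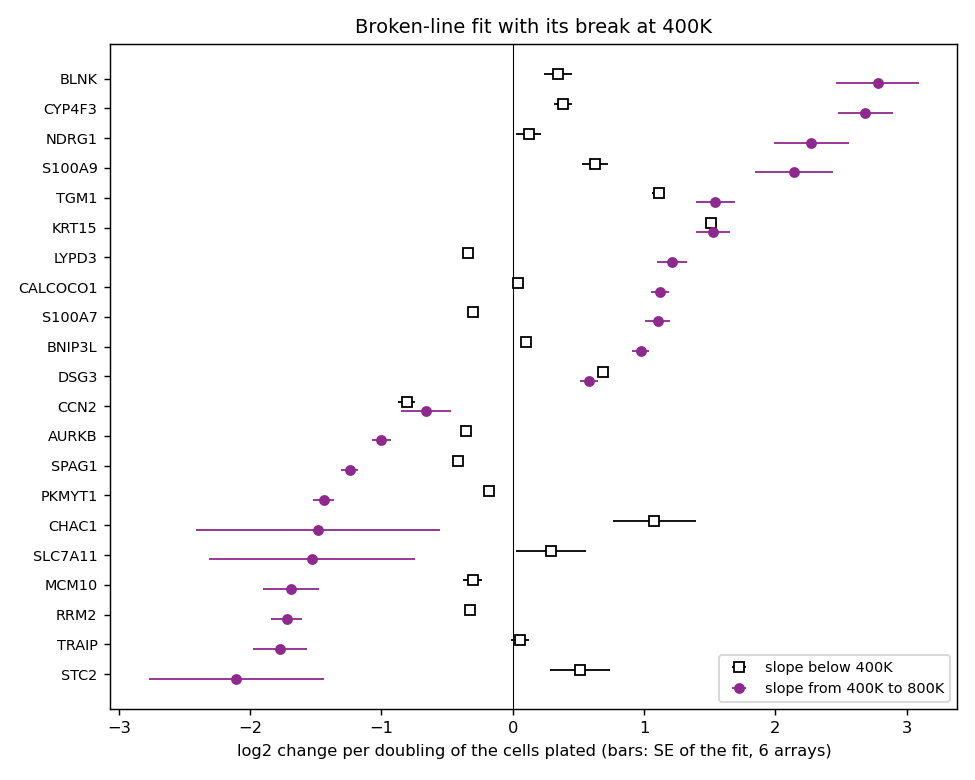
Slope of the broken line below 400K (open squares) and from 400K to 800K (purple points) for 21 of the genes named, in log2 change per doubling of the cells plated, with bars of 1 standard error from the fit to 6 arrays. BLNK and CYP4F3 have the largest slopes above 400K, at 2.78 and 2.69, and the bars of STC2, CHAC1 and SLC7A11 are the widest, none of these 3 passing the test.

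The medians of the arrays differed little, while the poly-A labelling controls shifted more. The median ratio to 400K over all probe sets was 1.02 at 600K and 1.01 at 800K. Poly-A labelling controls, which are added to the sample, ranged from -0.30 to 0.50 log2 at 600K (median 0.05) and from -0.19 to 0.75 at 800K (median 0.13) over 24 probe sets. The 3′ minus 5′ signal of ACTB changed by 0.14 log2 at 800K and that of GAPDH by -0.01. The part of these shifts in the results was not tested. Markers of other cell types had medians near 0 from 400K to 800K: 0.04 log2 over 10 fibroblast genes, 0.01 over 10 endothelial, 0.02 over 8 leukocyte and -0.02 over 10 adipocyte genes, with 0 slope calls in limma in any of the 4 lists (at an unadjusted p under 0.05: 1 fibroblast, 2 endothelial, 0 leukocyte and 1 adipocyte genes, rising or falling). The 14 mammary epithelial markers had a median of 0.03, with 7 higher and 5 lower at both steps and 1 rising in the slope fit. Their largest changes went both ways. KRT14, a basal keratin, stood at 1.32 and EPCAM, a luminal adhesion protein, at 0.758 at 800K. ITGB4 changed by 0.42 log2 from 400K to 800K (-0.16 without probe sets prone to cross-hybridisation) and KRT18 by -0.38. Ratios carry no level, so whether a marker was expressed at all could not be read, and genes at the array's background have understated changes.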

How the data were processed

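Per the submitters' processing notes the arrays were processed with RMA, which corrects background, normalizes between arrays and summarises each probe set; no version and no genome build are given in the sources used here. What the authors deposited is, for each probe set, a linear ratio with the 50K array as denominator (all 54675 values of that array equal 1 within 1e-06), so no expression level, signal over background or array intensity was available to this work, and no filter on low values could be set. With 1 array per density, the number of arrays limits the precision.

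The log2 of each ratio was taken. The platform annotation gave 1 symbol for 41097 probe sets, a few of the 62 control probe sets among them, several for 1801 and no entry for 11777. Only the non-control probe sets with 1 symbol were used, of which 41037 were matched to RefSeq by gene identifier and 54 kept the annotation's symbol. Averaging gave 19775 genes, 10523 with several probe sets. Dividing by 50K and then by 400K shifts all values of a gene alike and leaves differences between arrays unchanged.

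One-way genes were counted without a test. Slopes came from limma 3.58.1 in R 4.3.3 (lmFit, eBayes, no mean-variance trend) as a broken line over all 6 arrays. On simulated data for the density slope from 400K to 800K (19775 genes), 82% of 100 genes with a slope of 1 and 96% of 100 with a slope of 2 were recovered, and 7 unchanged genes were called. The simulated noise was independent between genes and arrays, and the line below 400K was flat. Shifts of a whole array and departures from the broken line were left out, so these rates cannot be carried over to the real calls. Alternatives were probe sets without cross-hybridisation suffixes, median centring, cell number in place of its log2, robust variances, a line through the 3 crowded arrays, other fold limits and each array left out.

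The genes named were the 12 largest increases and decreases with at least 0.2 log2 at each step and agreeing probe sets, the 2 extremes of each step and direction, up to 4 members per list with the largest change, the 6 largest turns at 400K each way, and the 4 smallest p-values for the slope and for its change; other list members are named as examples chosen after their values were seen. The members, lists and rules were chosen with earlier results of these data known. Promoters are the RefSeq windows of GRCh38.p14, searched with fixed letter patterns on both strands. Text and tables were made with Python 3.11.15, pandas 2.3.3 and numpy 2.4.6.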

Additional observations from a re-analysis of the deposited data

How the results depend on the processing

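The one-way 2-fold counts of 78 and 83 stayed within 1.5 times under the settings tried other than the 1.5-fold limit, which gave 317 and 398. Membership was less stable than the counts. Without probe sets prone to cross-hybridisation 66 genes were higher, 54 of them among the 78, and 75 were lower, 68 of them among the 83. A minimum size per step or agreement of all probe sets could only lower the counts. The slope calls, 116 rising and 213 falling, did not hold up: there were 0 and 0 with arrays centred on their medians, and between 0 and 0 when any 1 array was left out (limma; the unadjusted counts stand in the report). Without probe sets prone to cross-hybridisation 25 rose, 21 of them also in the first count, and 56 fell, 49 of them shared. With cell number itself 60 rose (43 shared) and 161 fell (135 shared). Robust variances gave 89 and 178, and the line through the 3 crowded arrays, with 1 residual degree of freedom, 158 and 236, of which 72 and 159 were shared. The change of slope had 0 calls in limma in each fit, with smallest adjusted p-values from 0.0973 to 0.517 and, in the main setting, 998 and 1154 genes at an unadjusted p under 0.05.

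Of 33 list medians, 19 moved little without probe sets prone to cross-hybridisation and 14 moved. These were 0.42 for keratinocyte, -0.67 for mitosis, -0.15 for YAP/TAZ, 0.030 for actin, -0.13 for amino acid transporters, -0.30 for aminoacyl-tRNA synthetases, 0.18 for cholesterol, 0.0068 for glycolysis, 0.13 for interferon, 0.016 for NF-kB, 0.43 for glucocorticoid, 0.18 for p53, -0.19 for NRF2 and -0.027 for Notch genes. Fewer genes were measured there. Median centring moved the interferon list to 0.16. Of the genes chosen by the naming rules and measured without those probe sets, 21 moved and TAGLN reversed, to 0.24. Among genes named as examples, which that count leaves out, GADD45B turned to 0.16, ASNS to -0.091 and PKM to -0.022, POLA2 went to 0.00094 and E2F1 to -0.16. The causes were not tested. BLNK, NDRG1, LAPTM5, KRT23, SLC2A3, CALCOCO1, PKMYT1 and further genes had only probe sets prone to cross-hybridisation, so this check could not be made for them. No paired analysis was possible because each density had a single array and the labels give no replicate numbers. Signal over background is unknown, so decreases of dim genes are understated by an unknown amount.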
